A study of Homo sapiens with 8 samples.

Results

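The enzymes described here make, trim and remove the deoxynucleotides that DNA synthesis consumes. They are TYMS and the 8 further genes TK1, RRM1, RRM2, RRM2B, DUT, DCTPP1, DTYMK and SAMHD1, which together make 9 of the 17649 genes measured. They were taken by gene symbol, and the group was selected on measured values, namely their CPM differences between exposed and control cells, which were already known. Those differences are therefore given below as a description. The fit across all genes includes the 9, and where its calls on them are counted, they stand beside the share of all genes called and support nothing. Transcripts were profiled by RNA-Seq in MDA-MB-231, an established estrogen receptor–negative line derived from human breast cancer, grown in low-glucose medium. In 4 cultures the cells received 1 μM N-carboxymethyllysine (CML) for 48 hours, and these libraries carry the label NCML. The 4 control cultures were given phosphate-buffered saline in its place. CML is an advanced glycation end product, formed when a sugar or its breakdown products modify lysine. Neither group carries a genetic change introduced for the experiment, and the results hold for a single cell line under a single dose and time. The labels number the replicates 1 to 4 in each group without saying how far the cultures were independent, so the errors measure the spread among these 8 libraries.

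Deoxynucleotides reach the replication fork by synthesis from ribonucleotides and by salvage of nucleosides. Ribonucleotide reductase, built from the large subunit RRM1 and a small subunit that is either RRM2 or RRM2B, reduces ribonucleoside diphosphates. Thymidylate synthase (TYMS) then methylates dUMP to dTMP with a folate cofactor and is the target of fluorouracil, whereas TK1 makes the same dTMP from thymidine. DTYMK phosphorylates dTMP to dTDP, DUT and DCTPP1 are pyrophosphatases that remove dUTP and dCTP with its modified forms, and SAMHD1 degrades deoxynucleoside triphosphates. In dividing cells TYMS, TK1, RRM2 and DUT are best known as genes of the G1/S transition and S phase, where E2F factors bind their promoters, and NF-Y binds CCAAT boxes in many promoters of cycling genes.

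The values are CPM, the reads of a gene relative to the size of its library, and the estimated reads behind them were worked back from the steps between values. Libraries totaled 16161801 to 18954731 estimated reads, and control replicate 4 was the deepest control library with 17729518 reads. All 9 genes had whole reads in all 8 libraries, from 214 to 305 for DUT, the lowest, up to 892 to 1164 for RRM1, the highest. All 9 also had a mean above 1 CPM. Markers of this line were abundant, with mean levels of 4109 CPM for VIM and 850 CPM for CD44. Of 9 genes listed as luminal or epithelial, leukocyte or endothelial markers, 7 were in the table. They ran from 0.0209 CPM for PGR to 221 CPM for KRT8, a keratin of epithelial cells. PTPRC was at 0.377 CPM, CDH1 at 0.654, LYZ at 0.813, PECAM1 at 3.21 and EPCAM at 14.5 CPM, while ESR1 and CD3E had no row, and none of the 7 was called.

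Promoters are shown for TYMS, RRM1 and RRM2, the genes whose exposed and control libraries did not overlap, so that their letters can be set beside the values. Each line gives the 140 bases before the RefSeq start, 5′ to 3′ on the gene's own strand. Capitals mark a match to an E2F word, which was TTCCCGC or the form TTCGCGC or the form TTGCCGC or the form TTGGCGC, or to CCAAT, each searched on both strands. The stretches are chr18:657513-657652 for TYMS, chr11:4094545-4094684 for RRM1 and chr2:10122599-10122738 for RRM2, all on the plus strand of GRCh38.p14.
TYMS: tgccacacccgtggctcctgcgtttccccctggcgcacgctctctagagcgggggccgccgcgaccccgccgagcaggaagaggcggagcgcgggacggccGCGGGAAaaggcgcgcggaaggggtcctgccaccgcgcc
RRM1: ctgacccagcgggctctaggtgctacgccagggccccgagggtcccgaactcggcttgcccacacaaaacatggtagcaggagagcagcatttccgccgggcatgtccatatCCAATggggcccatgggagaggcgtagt
RRM2: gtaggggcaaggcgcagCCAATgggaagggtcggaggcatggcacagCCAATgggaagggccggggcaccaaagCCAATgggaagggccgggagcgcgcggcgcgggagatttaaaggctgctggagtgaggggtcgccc
The TYMS stretch holds 1 E2F word, on the other strand and beginning 39 bases before the start, and no CCAAT. RRM1 holds 1 CCAAT, 28 bases before the start, and an E2F word 223 bases before it, outside the stretch shown. The RRM2 start shown has 3 CCAAT boxes, at 123, 93 and 66 bases upstream, and no E2F word in its window, while a second RefSeq start of RRM2 has 1 word of each kind. TK1 holds 1 E2F word and 2 CCAAT boxes in 1 of its windows, DUT holds 2 E2F words in 1 of its 4 windows, DTYMK and SAMHD1 hold 2 CCAAT boxes each, and DCTPP1 holds neither. Over all 35116 RefSeq windows of 300 bases, 13.0% held an E2F word and 34.6% a CCAAT. A match describes these letters and does not show binding, and a window without a match says nothing about the factor.

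TYMS was higher with CML in every library. The control libraries held 23.0, 24.6, 24.5 and 26.9 CPM, and the CML libraries held 32.6, 30.8, 32.1 and 31.2 CPM. The groups did not overlap, and the CML libraries lay closer together than the controls. The mean was 24.7 ± 1.63 CPM in controls and 31.7 ± 0.811 CPM with CML (SD, n = 4 each), which is 28.0% more and a difference of 0.35 on the log2(CPM + 1) scale (SE 0.047). That scale understates changes of genes with few reads. The SD of TYMS was 1.35 times the SD that counting error alone would give in controls and 0.595 times in CML cells. In bulk RNA, more cells in a phase that transcribes a gene and more transcript per cell cannot be told apart.

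TYMS lies at chr18:657653-673578 on the plus strand of GRCh38.p14 (RefSeq), and its span overlaps 2 genes of the opposite strand. The overlap with TYMSOS, its antisense transcript, covers chr18:657653-658291, and the overlap with ENOSF1, which encodes a member of the enolase superfamily, covers chr18:662986-673578. The sources do not say whether strand was used in counting, so reads from TYMS and from these partners cannot be told apart where the genes overlap. ENOSF1 was at 22.9 ± 1.31 CPM in controls and 21.9 ± 0.775 CPM in CML cells (SD, n = 4 each), a log2 difference of −0.06 with an adjusted p of 0.885 in limma. TYMSOS had between 0 and 8 reads per library, too few for a comparison.

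RRM1 and RRM2, the subunits of the ribonucleotide reductase of dividing cells, were both higher with CML, and neither overlapped between groups. RRM1, at chr11:4094685-4138932, held 53.2, 57.2, 55.6 and 58.9 CPM in the control libraries and 66.6, 62.3, 62.9 and 69.7 CPM in the CML libraries. Its mean was 56.2 ± 2.43 CPM in controls and 65.4 ± 3.46 CPM with CML (SD, n = 4 each), 16.2% more and a log2 difference of 0.21 (SE 0.046). The gap between the highest control and the lowest CML library was narrow for this gene. RRM2, at chr2:10122568-10211010, held 23.4, 24.1, 20.8 and 26.3 CPM in controls and 29.0, 29.3, 34.1 and 32.4 CPM with CML. Its mean went from 23.6 ± 2.26 to 31.2 ± 2.46 CPM (SD, n = 4 each), 31.9% more, and its log2 difference of 0.39 (SE 0.081) was the largest of the 9 genes. RefSeq places only small or uncharacterized genes inside its span, none of them with a row in the table.

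RRM2B, the p53-inducible alternative to RRM2 that serves DNA repair and resting cells, lies on chromosome 8 and behaved differently. Its control libraries were at 44.7, 45.3, 45.1 and 50.4 CPM and its CML libraries at 48.2, 48.3, 48.7 and 50.1 CPM. The groups overlapped, because control replicate 4 was the highest of all 8 libraries. The log2 difference was 0.07 (SE 0.040), or 5.26% on the mean. Per kilobase of transcript, the ratio of RRM2 to RRM2B ran from 0.676 to 0.780 in the control libraries and from 0.882 to 1.03 in the CML libraries. These ranges did not overlap, which largely restates the RRM2 difference, since the ratio is built from the same RRM2 values. RRM2B was the more abundant of the pair per length in all 4 controls and in 3 of the 4 CML libraries. The ratio of RRM1 to RRM2 per kilobase overlapped between the groups, from 2.33 to 2.77 in controls and from 1.91 to 2.38 with CML.

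TK1, the S phase thymidine kinase at chr17:78174079-78187204 on the minus strand, was higher on average by nearly as much as TYMS and spread more widely. Control libraries were at 27.2, 23.9, 20.7 and 20.2 CPM, and CML libraries at 29.5, 29.2, 31.3 and 25.4 CPM. The groups overlapped in 1 library, since CML replicate 4 lay below control replicate 1. The mean was 23.0 ± 3.28 CPM in controls and 28.8 ± 2.44 CPM with CML (SD, n = 4 each), a log2 difference of 0.32 (SE 0.107). Its SD was 2.81 times the counting SD in controls and 1.88 times with CML, the former being the largest such ratio among the 9 genes. AFMID, the gene beside TK1, was at 18.3 CPM in controls and 17.8 CPM with CML, a log2 difference of −0.04 (limma, adjusted p = 0.995).

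**Figure D1:**
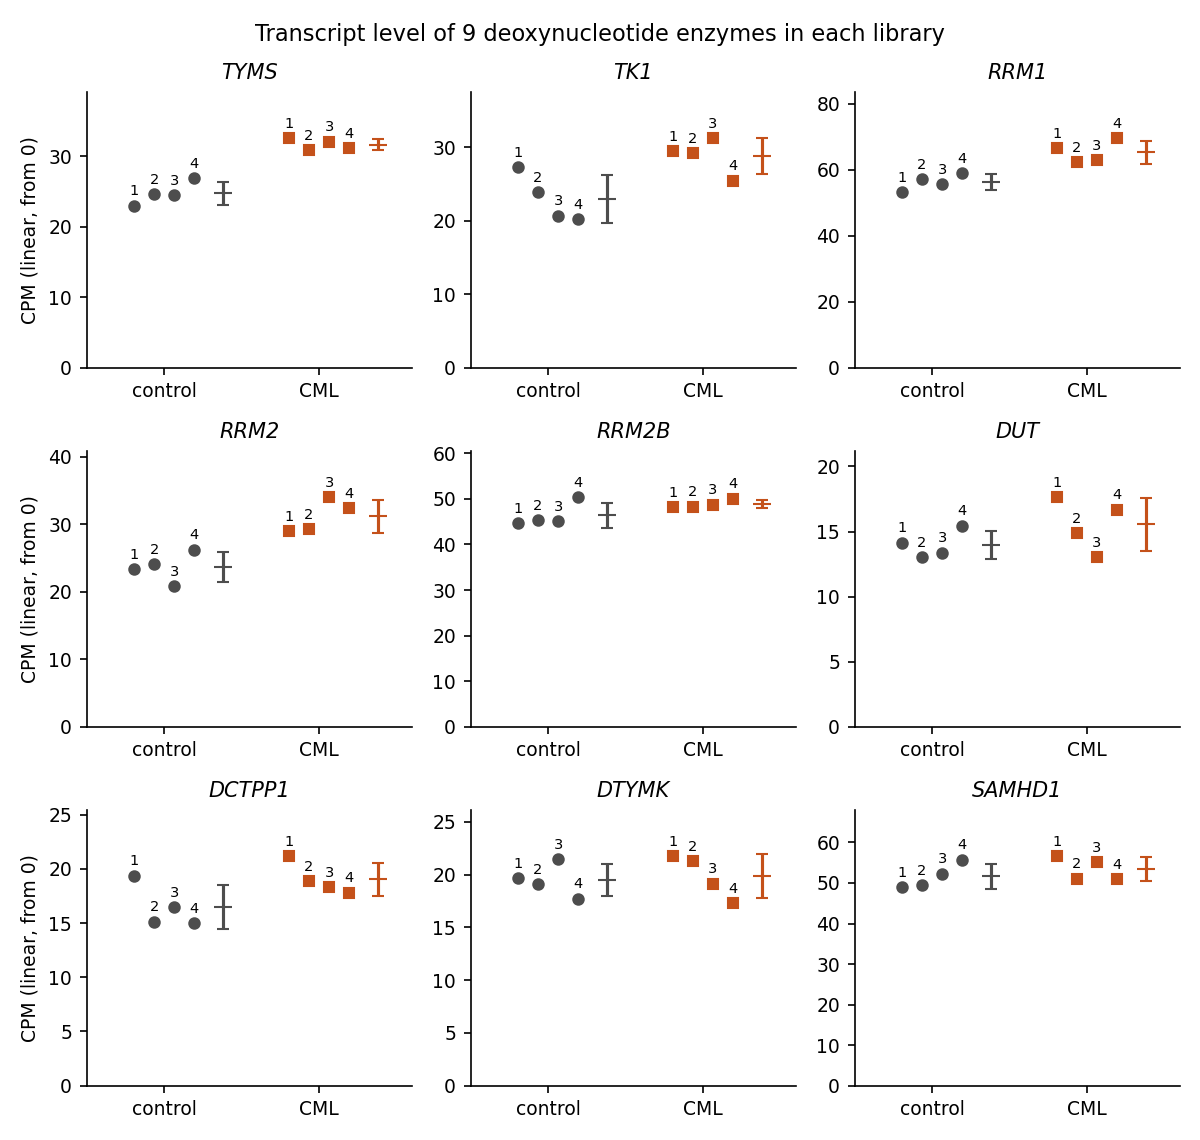
Transcript level in CPM (linear axes from 0, a scale for each gene) of the 9 enzymes in the 4 control libraries (circles) and 4 CML libraries (squares), with replicate numbers and, beside them, the mean and SD. The groups are apart for TYMS, RRM1 and RRM2 and overlap for the other 6 genes, for RRM2B because control replicate 4 stands at 50.4 CPM.

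The kinase DTYMK and the pyrophosphatases DUT and DCTPP1 showed smaller differences with overlapping groups. DTYMK, at chr2:241675747-241686815 on the minus strand, was at 19.7, 19.1, 21.5 and 17.7 CPM in controls and at 21.8, 21.3, 19.1 and 17.3 CPM with CML. The lowest of all 8 libraries was a CML library, and the log2 difference was 0.02 (SE 0.086). DUT, at chr15:48331095-48343373, keeps uracil out of DNA and overlaps the antisense gene DUT-AS1, which has no row in the table. Its control libraries were at 14.1, 13.0, 13.4 and 15.4 CPM and its CML libraries at 17.7, 14.9, 13.0 and 16.7 CPM, a log2 difference of 0.14 (SE 0.099). Here CML replicate 3 was level with the lowest controls, and the SD with CML was 2.13 times the counting SD.

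DCTPP1, at chr16:30423615-30430030 on the minus strand, was at 19.4, 15.1, 16.4 and 15.0 CPM in controls and at 21.2, 18.8, 18.3 and 17.8 CPM with CML. The overlap came from control replicate 1, which lay above 3 of the CML libraries, and the log2 difference was 0.20 (SE 0.092). For SAMHD1, at chr20:36889773-36951708 on the minus strand, whose end overlaps TLDC2 of the opposite strand, the controls were at 48.9, 49.5, 52.3 and 55.8 CPM. The CML libraries of SAMHD1 were at 56.7, 51.1, 55.1 and 50.9 CPM, 3 of them within the range of the controls, and the log2 difference was 0.05 (SE 0.054). The enzyme that degrades deoxynucleotides therefore had a difference no larger than its standard error, and so did DTYMK.

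All 9 log2 differences were above 0, with a median of 0.20. Among the 13047 genes that averaged 1 CPM or more, 58.8% were higher with CML and the median was 0.01. With limma across all genes and the false discovery rate of 0.3 used by the study for this experiment, TYMS, RRM1 and RRM2 were among the called genes, all of them higher, 3 of 9 against 0.895% of all genes in either direction (158 of 17649) and 0.674% called higher. The same 3 genes had every CML library above every control library, against 2.5% of all genes and 3.04% of those that averaged 1 CPM or more. Because the 9 genes were chosen for this contrast, nothing is read from these shares. At an adjusted p of 0.05 limma called 0 of all genes, while 1352 genes (7.66%) had an unadjusted p under 0.05. That 0 depended on the settings, becoming 36 genes when the fit was restricted to genes averaging 1 CPM or more, 171 with GC and length effects removed, 7 with a pseudocount of 0.1, 5 without a variance trend and 1 with quantile normalization.

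Which of the 9 genes were called depended on single libraries. Over the 16 alternative fits, 8 of which leave out a library, the log2 difference of TYMS ran from 0.31 to 0.39 and that of RRM2 from 0.33 to 0.44. For TK1 the range was 0.26 to 0.40, and for RRM1 it was 0.18 to 0.24. DTYMK ran from −0.02 to 0.09 and was above 0 in 13 of the 16 fits, the others being those without control replicate 4, without CML replicate 1 and without CML replicate 2, whereas the other 8 genes were above 0 in all 16. Single libraries also moved the smaller differences by over 1.5 times. DUT, at 0.14 with all libraries, was at 0.08 without CML replicate 1 and at 0.22 without CML replicate 3. RRM2B went from 0.07 to 0.11 without control replicate 4. SAMHD1, at 0.05, was at 0.02 without CML replicate 1, at 0.03 without control replicate 1 or without control replicate 2, and at 0.09 without control replicate 4. DCTPP1 ran from 0.15 to 0.28. The number of the 9 genes called fell to 0 without control replicate 2, without CML replicate 2 and without CML replicate 3. It was 1 (TYMS) when control replicate 1 or 3 or CML replicate 1 or 4 was left out, and 4 without control replicate 4, when RRM2B was added. Calls over all 17649 genes moved in the same fits, to 45, 20 and 44 in the 3 fits with 0 of the 9 and to 690 without control replicate 4, against 158 with all libraries.

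**Figure D2:**
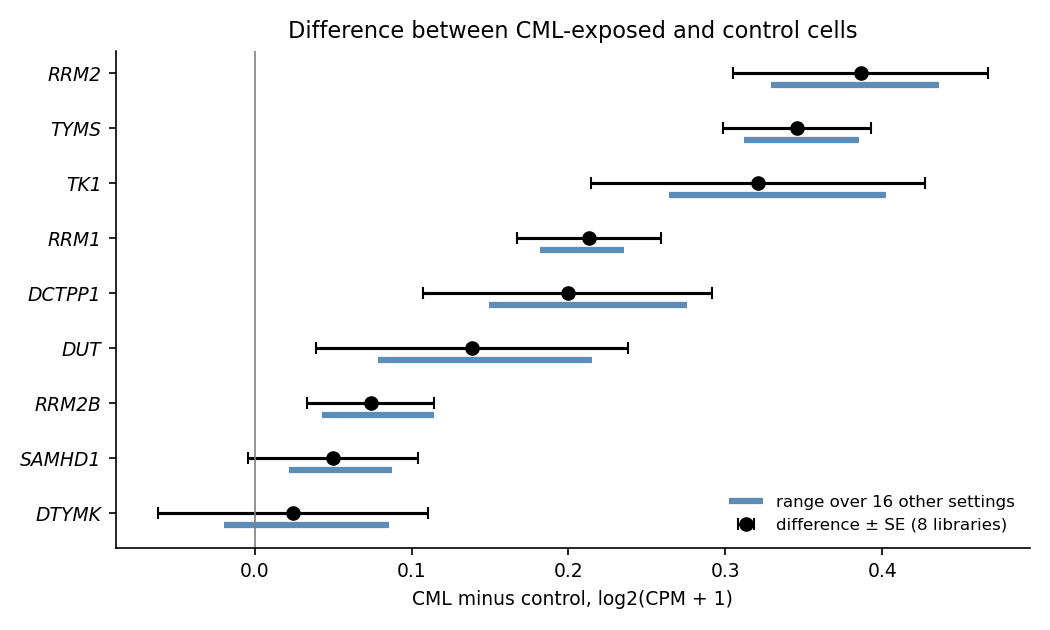
Log2(CPM + 1) difference between CML-exposed and control cells for the 9 enzymes (points, with the SE from 8 libraries as bars) and the range of that difference over 16 alternative fits (thick lines). RRM2, TYMS and TK1 lie above 0.26 in every fit, and the range of DTYMK crosses 0.

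Levels in the unexposed cells, from the same 4 control libraries that enter the differences above, were compared per kilobase of transcript over the 4 control libraries. DTYMK was the most abundant at 18.5 ± 1.48 CPM per kb, followed by RRM1 at 17.9 ± 0.774, TK1 at 16.1 ± 2.29, TYMS at 15.3 ± 1.01 and DCTPP1 at 14.0 ± 1.72 (SD, n = 4). Each of these overlapped its neighbor in the order. SAMHD1 at 11.1 ± 0.678 and RRM2B at 9.71 ± 0.570 CPM per kb overlapped each other and lay below that group. RRM2 at 7.26 ± 0.693 and DUT at 6.53 ± 0.504 CPM per kb also overlapped and were the lowest. The measure covers RNA only and takes a single annotated transcript length per gene. By this measure RRM2 was the lowest of the reductase subunits in control cells. DTYMK stood above 71.1% of the 12928 genes that averaged 1 CPM or more and had a transcript length.

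**Figure D3:**
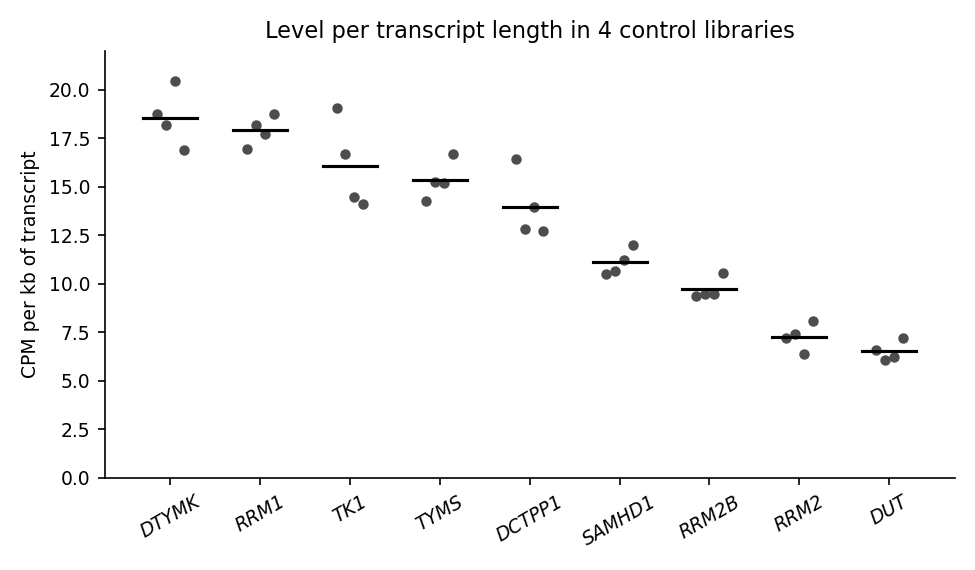
Level per transcript length (CPM per kb, linear axis from 0) of the 9 enzymes in the 4 control libraries (points), with the mean as a bar, ordered by the mean. The ranges separate 3 steps, from DTYMK to DCTPP1, then SAMHD1 and RRM2B, then RRM2 and DUT.

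The genes whose profile over the 8 libraries was nearest to that of TYMS were NCAPH, PLK4, MKI67, SHCBP1 and CD274. Likeness was the root mean square difference of log2(CPM + 1) values centred on each gene's mean, computed against the 13046 other genes that averaged 1 CPM or more, and these 5 genes were at 0.0448 to 0.0589. NCAPH encodes a condensin subunit, PLK4 a kinase of centriole duplication, MKI67 the proliferation antigen Ki-67, and CD274 the immune checkpoint ligand PD-L1. Of the other 8 enzymes, RRM1 ranked 45 and RRM2 ranked 80 by this measure. TK1 ranked 4427 and DTYMK 8039, so the thymidine kinase and TYMS differed in the pattern of their replicates although their mean differences were alike. The measure includes the difference between the groups and is a description only.

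The folate cycle, which supplies the methyl group that TYMS uses, was measured through 14 genes. None passed an adjusted p of 0.3 in limma, and 3 had an unadjusted p under 0.05, all higher with CML. For MTHFD1, a trifunctional folate enzyme, the log2 difference was 0.11 (limma, adjusted p = 0.400), and for the mitochondrial MTHFD2 it was 0.10 (adjusted p = 0.579). Of 12 folate genes that averaged 1 CPM or more, 8 were higher with CML, and the median log2 difference of the 12 was 0.06.

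Nucleotide synthesis upstream of the reductase gave no called gene. Of 8 pyrimidine synthesis genes, 0 had an adjusted p under 0.3 or an unadjusted p under 0.05, and the median log2 difference was 0.03. CTPS2, a CTP synthase, was at 7.51 and 8.55 CPM in control and CML cells (limma, adjusted p = 0.793), and its paralog CTPS1 was at 61.3 and 64.7 CPM (adjusted p = 0.859). Of 15 purine synthesis genes, 0 were called and 1 had an unadjusted p under 0.05. This was GART, an enzyme of the early steps of purine assembly, at 223 ± 10.3 CPM in controls and 236 ± 3.47 CPM with CML (SD, n = 4 each; limma, adjusted p = 0.626). The median of the purine genes was 0.04.

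Salvage and removal likewise held no called gene. Of 19 genes of nucleoside salvage and uptake, DCK alone had an unadjusted p under 0.05. DCK, the kinase that activates deoxycytidine and drugs such as gemcitabine, was at 23.6 ± 1.59 CPM in controls and 26.9 ± 0.930 CPM with CML (SD, n = 4 each), a log2 difference of 0.18 with an adjusted p of 0.405 in limma. ADK, the adenosine kinase, differed by 0.07 (adjusted p = 0.690) and the purine nucleoside phosphorylase PNP by 0.05 (adjusted p = 0.694) on the log2 scale. Among 9 genes of nucleotide removal and sanitation, the nucleotidases NT5C3A and NT5M had an unadjusted p under 0.05. NT5C3A had a log2 difference of 0.11 (limma, adjusted p = 0.495). Its estimated reads, 647 to 832 per library, were not whole numbers in any library. NT5M had 10 to 23 reads per library (limma, adjusted p = 0.550). NT5C, another nucleotidase, went the other way with a log2 difference of −0.07 (adjusted p = 0.897).

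Over these 65 enzymes and transporters, 0 were called by limma at 0.3 against 0.895% of all genes, and 7 had an unadjusted p under 0.05, all 7 higher with CML, against 4.77% of all genes in that direction. Of the 61 that averaged 1 CPM or more, 46 were higher with CML and the median log2 difference was 0.03. That number depended on the scaling, falling to 36 of 61 when libraries were centred on their median and to 38 of 61 with quantile normalization. The number higher among all 13047 genes averaging 1 CPM or more fell as well. It went from 7669 to 6140 with centring and to 6539 with quantile normalization. Without control replicate 4, DCK, GART, MTHFD1 and PNP passed 0.3, with adjusted p values from limma of 0.158, 0.230, 0.280 and 0.215. That fit called 690 of all 17649 genes, against 158 with all libraries.

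Among 18 regulators of the 9 enzymes, 2 rose with CML and none fell at an adjusted p of 0.3, against 0.674% and 0.221% of all genes. The list was chosen with earlier results of these data known, so nothing is read from these shares. CCNA2 encodes cyclin A2, whose kinase complex phosphorylates SAMHD1. Its control libraries were at 32.4, 30.6, 31.0 and 34.9 CPM and its CML libraries at 41.2, 40.3, 41.2 and 43.6 CPM. The groups did not overlap, with a log2 difference of 0.36 (SE 0.046; limma, adjusted p = 0.0897), and the adjusted p stayed between 0.0469 and 0.298 when each library was left out. CCNF encodes cyclin F, which targets RRM2 protein for degradation. It was at 11.6 ± 0.645 CPM in controls and 14.4 ± 0.557 CPM with CML (SD, n = 4 each), a log2 difference of 0.30 (limma, adjusted p = 0.173). CCNF passed 0.3 in 3 of the 8 fits that leave out a library and missed it without control replicate 1 or 2 or CML replicate 1, 2 or 3, with an adjusted p of up to 0.440. CDK1, the mitotic kinase, had a log2 difference of 0.22 (limma, adjusted p = 0.530).

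Markers of cell cycle phase were also mostly higher with CML, on lists chosen with earlier results of these data known. Of all genes averaging 1 CPM or more, 58.8% were higher, and 0.895% of all genes were called. Of 28 S phase markers, 1 was called, CDC45, a subunit of the replicative helicase. It was at 7.50 ± 0.334 CPM in controls and rose to 10.4 ± 0.417 CPM with CML (SD, n = 4 each), a log2 difference of 0.43 (SE 0.049; limma, adjusted p = 0.0856). For the remaining S phase genes the differences were smaller, with a median over all 28 of 0.12 and 26 of 28 higher, and 8 with an unadjusted p under 0.05. PRIM1, a primase subunit, had a log2 difference of 0.18 (adjusted p = 0.531), and MCM4, a helicase subunit, had 0.12 (adjusted p = 0.553).

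Of 20 G2 and M markers, 8 rose at an adjusted p of 0.3 in limma, against 0.674% of all genes. All 20 were higher with CML, and the median log2 difference was 0.24. MKI67 went from 124 ± 5.60 to 152 ± 3.21 CPM (adjusted p = 0.0856), UBE2C, a ubiquitin-conjugating enzyme of mitotic exit, by 21.2% from 36.3 ± 1.49 CPM (adjusted p = 0.0856), and CCNB1, cyclin B1, from 67.6 ± 2.83 to 82.0 ± 2.47 CPM (adjusted p = 0.0889; SD, n = 4 for each). The other called genes were BUB1, KIF20A, TPX2, TTK and TOP2A. The counts of higher genes in both lists were the same when libraries were centred on their median or quantile normalized. The number called in both lists together, 9 of 48, was 3 without CML replicate 2, 4 without CML replicate 3, 5 without control replicate 2 and 18 without control replicate 4, and CDC45, MKI67 and UBE2C passed in every one of the 8 fits. The share of the enzymes' differences that goes with cell cycle phase was not tested.

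**Figure D4:**
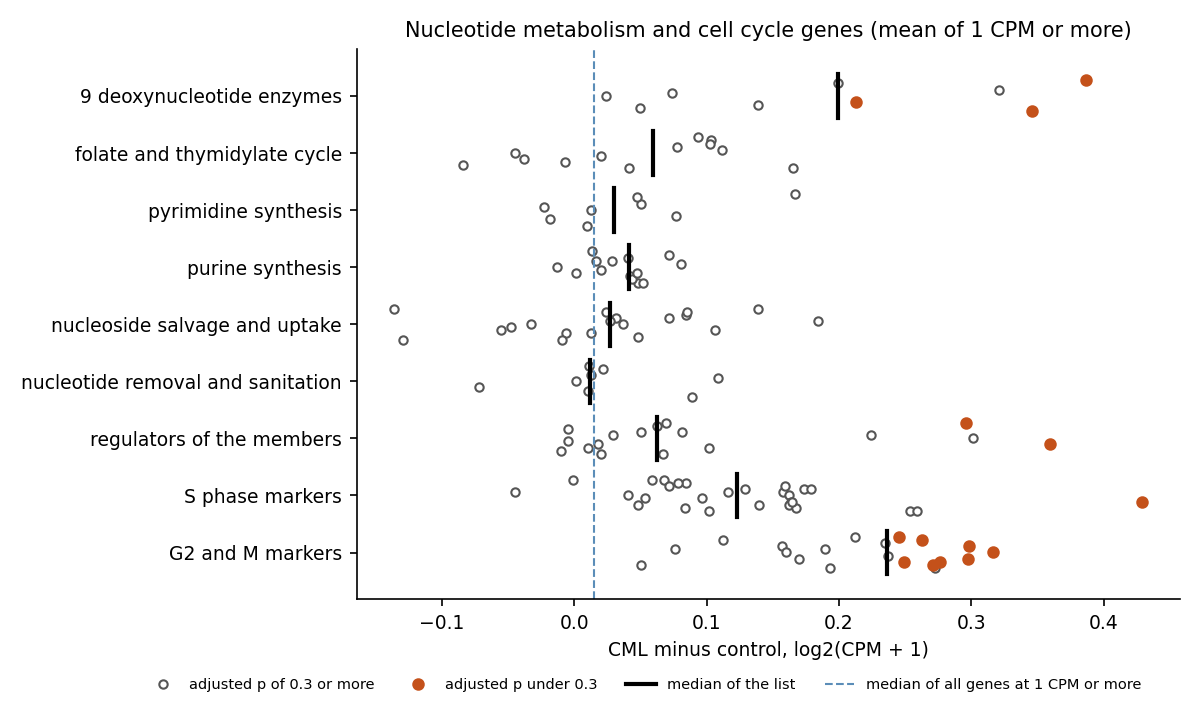
Log2(CPM + 1) difference between CML-exposed and control cells for each gene averaging 1 CPM or more, in the 9 enzymes and 8 lists around them (filled points have an adjusted p under 0.3 in limma, bars are list medians, the dashed line is the median of all such genes at 0.01). The median is 0.24 for the G2 and M markers, 0.20 for the 9 enzymes and 0.12 for the S phase markers, and the 5 lists of other enzymes and transporters hold no filled point.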

How the data were processed

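The deposited values are CPM, in a table of 17681 rows with a column for each library, scaled by the authors to library size after TMM normalization as their methods describe. The submitters' processing notes name edgeR and hg38, and the aligner, counter and annotation for this experiment are not given in the sources used here. NextSeq and HiSeq instruments are both named in the labels, while the study's methods name HiSeq for the CML experiment. Dividing the deposited CPM by the value of 1 read (0.0535 to 0.0622 CPM) gave whole reads for 85.1% to 86.1% of values above 0 (tolerance 0.02 reads), so no count test was run.

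Rows of a symbol were averaged (32 symbols), log2(CPM + 1) was computed, and limma 3.58.1 (R 4.3.3) tested the group difference, with a variance trend and Benjamini-Hochberg adjustment over 17649 genes at the study's threshold of 0.3. The fit was also run on simulated data as a check of the code, which does not bear on the calls in these data. The 9 enzymes, the gene lists and the naming rule were chosen with earlier results of these data known. The rule took the 9 enzymes, the called genes and the 3 smallest p-values of each list, genes beside or antisense to an enzyme, and the 5 profiles nearest to TYMS. One selected gene is not reported here. The symbols ADSS1 and ADSS2 were matched to ADSSL1 and ADSS. Positions and promoters come from RefSeq (GRCh38.p14), where 8 of the 9 enzymes had a promoter entry, all except RRM2B. Transcript lengths and GC content come from a GENCODE annotation of another build, used without coordinates. The fit was repeated with 0.1 as pseudocount, on genes averaging 1 CPM or more, with separate rows, median centring, quantile normalization, no variance trend, a replicate block, removal of GC and length effects, and each library left out. Figures were drawn with matplotlib 3.10.9.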

Additional observations from a re-analysis of the deposited data

Results flagged for a closer look

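Among 92 groups of 4 libraries tested for a value far from the other 3, 6 stood out, against 4.6 that chance gives. RRM2B in control replicate 4 was at 50.4 CPM, with the other controls between 44.7 and 45.3 CPM. CCNB1 in the same library was at 71.8 CPM, with the other controls between 65.6 and 66.5 CPM. Control replicate 4 also had the most reads of its group, 17729518 against 16559914 to 16690410. DCK in CML replicate 1 was at 25.5 CPM, below the 27.2 to 27.5 CPM of the other CML libraries, and IMPDH2, a dehydrogenase of guanine nucleotide synthesis, was at 327 CPM there, with the others at 334 CPM. AFMID in CML replicate 4 was at 14.7 CPM, with the others between 18.5 and 19.2 CPM.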

How the results depend on the processing

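The number of genes called was 158 of 17649, and it became 73 with libraries centred on their median (46 higher and 27 lower). With GC and length effects removed it was 877 of the 12929 genes tested (551 higher and 326 lower). On genes averaging 1 CPM or more it was 141 of 13047. With quantile normalization the 144 calls divided into 90 higher and 54 lower, against 119 and 39 in the fit reported. Leaving out each library gave 20 to 690 genes, 20 without CML replicate 2 and 690 without control replicate 4. Of the 9 enzymes, 3 were called, and 1 (TYMS) after centring, quantile normalization or the replicate block. With GC and length removed 5 were called (TYMS, TK1, RRM1, RRM2 and DCTPP1), beside the 877 of 12929 genes. On genes averaging 1 CPM or more 4 were called (TYMS, TK1, RRM1 and RRM2), beside the 141 of 13047. Leaving out each library gave 0 to 4 of the 9, beside the 20 to 690 of 17649 genes. Of the 83 other genes of nucleotide metabolism, regulators included, 2 were called, 1 after centring, 10 with GC and length removed (9 higher), and 1 to 7 with each library left out. Of 48 cell cycle markers, 9 were called, 20 with GC and length removed, and 3 to 18 with each library left out. The cause of these changes was not tested. No log2 difference of an enzyme changed sign, apart from that of DTYMK in 3 of the fits that leave out a library. Libraries with the same replicate number correlated at 0.199, −0.0303, −0.0645 and 0.334 in their deviations, against a mean of −0.0362 for different numbers. Of the 8 libraries, 4 correlated best with their own number. The labels do not say that equal numbers belong together, so the main fit took no pairs. Deviations were taken from group means, so the value for different numbers follows largely from those for equal numbers. These correlations therefore do not settle the point. With the replicate block 189 genes were called, with 3 of the 83 and 8 of the 48. With all libraries, at this depth and spread, DTYMK and SAMHD1 differed by no more than their standard errors. SAMHD1 exceeded its standard error without control replicate 4 (0.09, SE 0.048), CML replicate 2 (0.07, SE 0.059) or CML replicate 4 (0.07, SE 0.058). DTYMK did so without CML replicate 4 (0.09, SE 0.075), and neither gene did in any other fit. The cause of the spread was not tested.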
